A study of Arabidopsis thaliana with 48 samples.

Results

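BGLU15, BGLU40, BGLU44, BGLU45 and BGLU46 are Arabidopsis genes of the β-glucosidase family, glycoside hydrolase family 1. The 5 genes were chosen by symbol, among 13286 genes with a probe set of their own, and each is read by 1 probe set. These are 267388_at for BGLU15 (AT2G44450, chromosome 2), 261016_at for BGLU40 (AT1G26560, chromosome 1), 258151_at for BGLU44 (AT3G18080, chromosome 3), 264433_at for BGLU45 (AT1G61810, chromosome 1) and 264280_at for BGLU46 (AT1G61820, chromosome 1). They were picked with earlier results of the same arrays in view, and which values were used is not recorded. Their differences between light and darkness are therefore a description: no p-value is given for them, and calls are only counted, once, beside the share of all probe sets. For these 5 genes adjusted p-values are given for differences between light treatments, between harvests and between the dark groups, and these share arrays with the values known when the genes were picked. A change of the light effect between harvests is built from differences between light and darkness, so its p-value is a description too.

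The samples were 48 ATH1 arrays in 16 groups of 3. RNA came from etiolated Col-0 seedlings of Arabidopsis thaliana, for the most part from hypocotyls and cotyledons. After stratification for 48 h at 8 °C and 2 h of germination light, seedlings grew for 94 h at 22 °C in darkness before the treatment began. At 45 min and at 4 h the harvest took seedlings kept in darkness and seedlings given 1 of 7 light treatments. Light at 715 nm (far-red), 650 nm (red) or 453 nm (blue), or white light, was given without a break at 10 µmol per m2 and s. In the red pulse group 50 µmol per m2 and s were given for 1 min, and darkness followed until harvest. The UV pulses lasted 5 min and were also followed by darkness. The UV-A pulse was given at 7 W per m2 through a filter with a cut-off at 327 nm. For the pulse with UV-A and UV-B (called UV-A/B here) only 1 of 6 labels, that of 45 min replicate 2, gives the same intensity and a cut-off at 307 nm.

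The labels do not say whether replicates came from separate cultures, so the spread behind the p-values may be technical. Whole seedling parts were extracted, so fewer cells of a type and less RNA per cell cannot be told apart. The labels of 2 arrays disagree with themselves. UV-A/B 45 min replicate 2 is described as darkness in one field. For dark 4 h replicate 1 the germination light is given as green, where the other arrays have red. Values that rest on these arrays are also given without both of them where that moves them across the threshold. The title of far-red 45 min replicate 2 holds both a 1 and a 2, and the latter was used. No probe set of the 9 xylem markers or the 4 seed reserve markers could be named. Of the greening cotyledon markers, 4 of 6 were measured, none of them at 0. Their summed signal lay between 826 and 1799 in all arrays at 45 min, between 1188 and 1499 in darkness at 4 h, and between 2500 and 5725 in the 21 light arrays at 4 h. The part that greening has in the differences described here was not tested. Of the 6 root hair markers, 2 were measured, with a summed signal between 14.4 and 69.7 over all arrays.

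Family 1 glycoside hydrolases remove a sugar, most often glucose, from a small molecule or a short sugar chain. Plants store many phenolics, hormones and defence compounds as glucosides, and the hydrolase that frees them is often kept apart from its substrate. BGLU45 and BGLU46 act on monolignol glucosides such as coniferin, the storage forms of lignin building blocks. BGLU15 acts on glycosides of flavonols, the pigments that accumulate in illuminated and cold-stressed tissue. BGLU44 has a preference for mannosides in enzyme assays.

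All values are MAS5 signals on a linear scale, and a difference is that of log2(signal + 1) with its standard error (SE). A gene is called where limma's Benjamini-Hochberg adjusted p over all 15777 tested probe sets is under 0.05. Signals of different probe sets are not set against each other. All 5 genes passed the filter on low signals, which asks for a signal above the array's 40th percentile (24.3 to 30.1) on at least 3 arrays. BGLU15, BGLU40, BGLU44 and BGLU46 lay above it on all 48 arrays. BGLU45 did so on 0 of 24 arrays at 45 min and on 10 of 24 at 4 h, all of them in light, so it entered the test only through the groups where it was high.

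Against darkness at 45 min, none of the 5 genes was called in far-red light (2.09% of all tested probe sets were), the red pulse (2.21%), red (2.33%), blue (4.08%), white (3.30%) or UV-A (5.70%). With an unadjusted p under 0.05 there were between 0 and 2 of the 5 genes in each of these 6 comparisons. In UV-A/B 1 of 5 was called, beside 9.04% of all probe sets. At 4 h, 4 of 5 genes were called in far-red (29.1% of all), 1 in the red pulse (2.73%), 4 in red (16.1%), 5 in blue (26.4%), 4 in white (21.3%), 1 in UV-A (4.70%) and 1 in UV-A/B (22.4%). Over the 14 comparisons that gave 21 calls in 70, of which 14 were higher and 7 lower in light. All 7 lower calls were of BGLU15, and all 14 higher calls were of the other genes. The choice of genes used these arrays, so nothing is read from these counts.

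**Figure D1:**
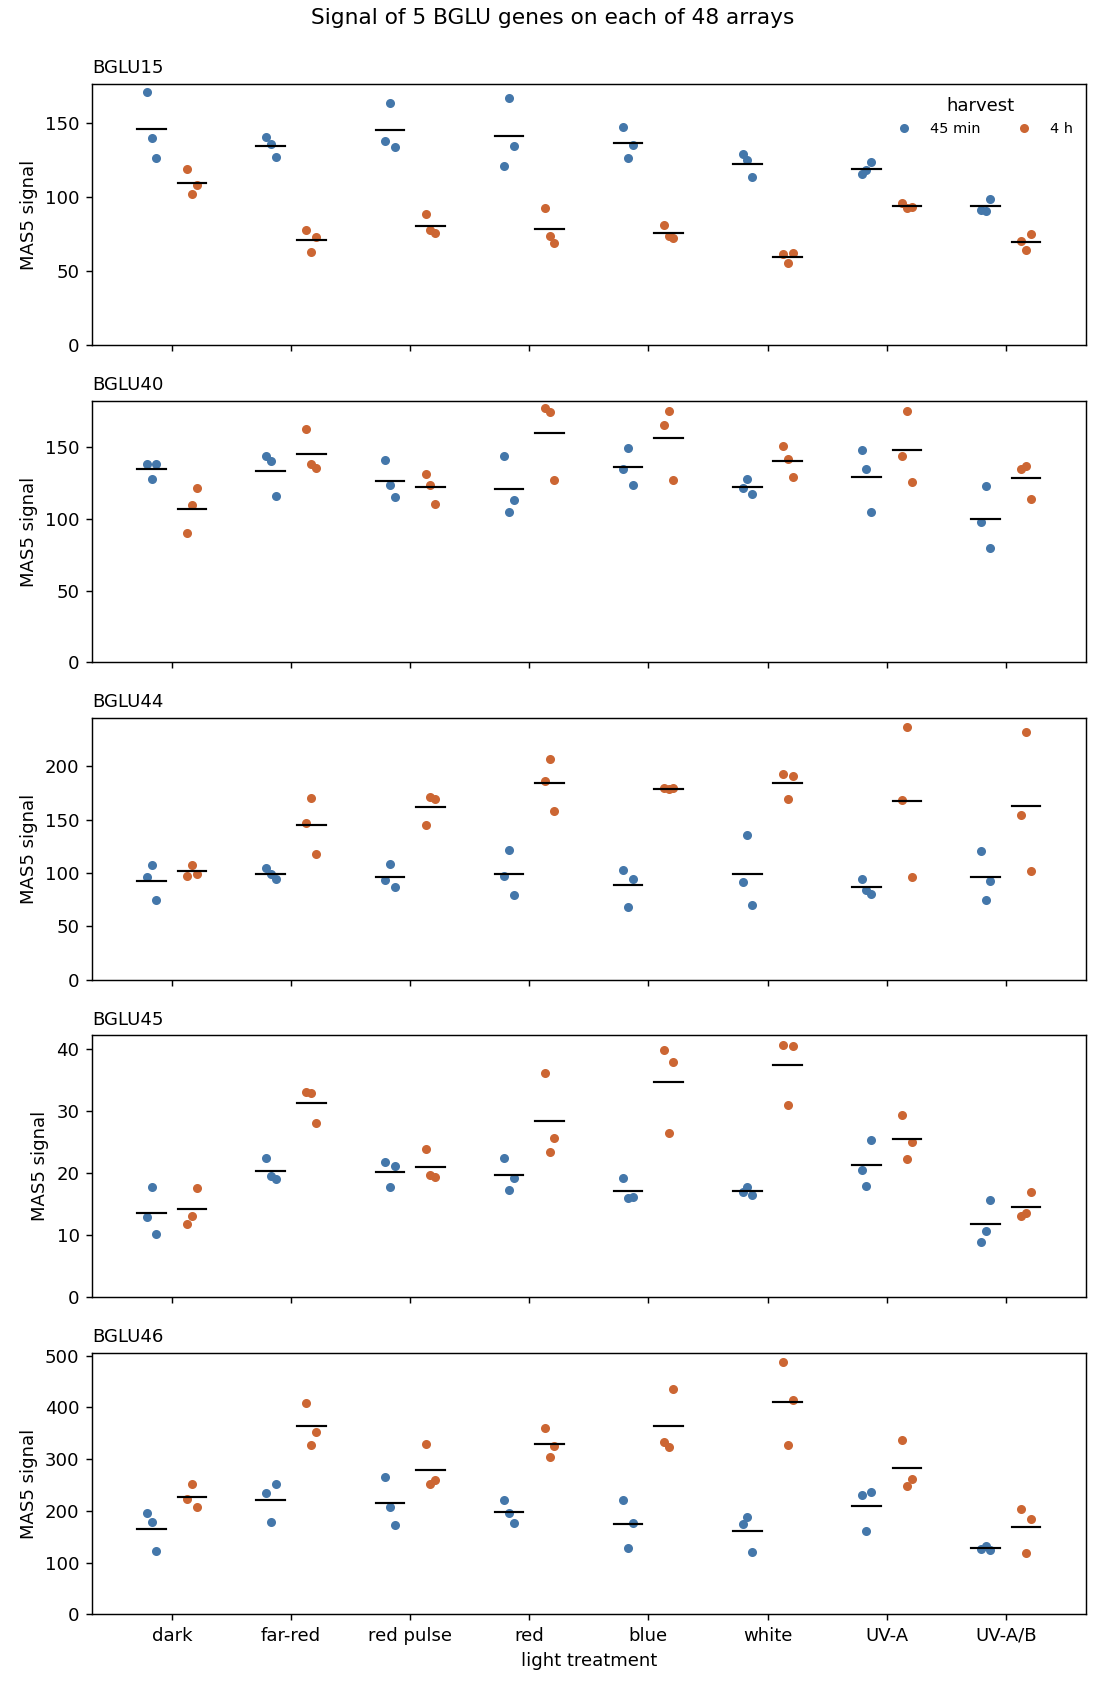
MAS5 signal (linear, each axis from 0) of the 5 genes on every array, by light treatment, with blue points for the harvest at 45 min and orange points for 4 h. Points are arrays and black lines are means of 3 arrays. BGLU15 has its lowest mean in white light at 4 h (59.8), where BGLU44, BGLU45 and BGLU46 have their highest.

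BGLU15, the flavonol glycosidase gene, lay lower in light than in darkness on every array harvested at 4 h. Its signals in darkness at 4 h were 119.2, 102.0 and 108.4, a mean of 110 ± 8.69 (SD, n = 3). In white light they were 61.4, 55.6 and 62.3, a mean of 59.8 ± 3.64. The 21 light arrays lay between 55.6 and 95.9, all below the lowest dark array. The log2 difference from darkness was -0.87 ± 0.12 (SE) in white light, -0.64 ± 0.12 in UV-A/B and -0.62 ± 0.12 in far-red. It was -0.53 ± 0.12 in blue, -0.49 ± 0.12 in red and -0.44 ± 0.12 in the red pulse. After UV-A, with signals of 95.9, 92.6 and 93.7, it was -0.22 ± 0.12. Without the 2 arrays with conflicting labels the difference in the red pulse was -0.38.

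At 45 min BGLU15 had its lowest mean after UV-A/B. The UV-A/B arrays read 91.6, 91.0 and 99.1, a mean of 93.9 ± 4.51. The dark arrays read 171.1, 140.2 and 126.6, a mean of 146 ± 22.8. All 3 UV-A/B arrays lay below all 18 arrays of the other 6 treatments, which lay between 113.7 and 167.4. The UV-A/B difference from darkness was -0.62 ± 0.12. The 3 UV-A arrays, at 115.7, 118.2 and 123.6, also lay below the lowest dark array, with a difference of -0.28 ± 0.12.

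The level of BGLU15 in darkness was itself lower at the later harvest. All 3 dark arrays at 4 h lay below all 3 at 45 min, a log2 difference of -0.40 ± 0.12 with an adjusted p of 0.218. In this dark comparison 0 of 5 genes were called, beside 0.0317% of all probe sets, and 3 of 5 had an unadjusted p under 0.05. The other two were BGLU40, with a difference of -0.34 ± 0.16 (adjusted p = 0.519), and BGLU46, with 0.48 ± 0.21 (adjusted p = 0.485). Each light effect is taken within a harvest. A change of the effect between harvests subtracts the difference between the dark groups, so it depends on it.

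The light effect on BGLU15 was called as different between harvests in 2 of 7 treatments. In white light it went from -0.24 ± 0.12 at 45 min to -0.87 ± 0.12 at 4 h, a change of -0.63 ± 0.16 with an adjusted p of 0.00954. This call held without any 1 of the 12 arrays and under all 8 other settings. In far-red light the effect went from -0.11 ± 0.12 to -0.62 ± 0.12, a change of -0.51 ± 0.16 (adjusted p = 0.0276). That call was lost without any 1 of 5 arrays (dark 45 min replicates 2 and 3, far-red 45 min replicate 1, dark 4 h replicate 1, far-red 4 h replicate 2), with adjusted p between 0.0605 and 0.105, and without the 2 arrays with conflicting labels (adjusted p = 0.0895). In the red pulse, red and blue light the change was -0.44 ± 0.16 in each, with an unadjusted p under 0.05 and adjusted p of 0.233, 0.106 and 0.0792. In blue light it was called after quantile normalization (adjusted p = 0.0479) and without dark 45 min replicate 1 (0.0237). In red light it was called without that dark array (adjusted p = 0.0363) or without red 4 h replicate 1 (0.0351). Whether the changes differ between treatments was not tested. After UV-A/B the effect was about as large at both harvests, with a change of -0.02 ± 0.16 (adjusted p = 0.959).

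The order of the 16 group means of BGLU15 ran from darkness at 45 min (146) down to white light at 4 h (59.8), 2.44-fold lower. In that order 12 of 15 pairs of neighbours overlapped. The 3 steps without overlap were dark 4 h over UV-A 4 h, UV-A/B 45 min over the red pulse at 4 h, and UV-A/B 4 h over white 4 h.

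**Figure D2:**
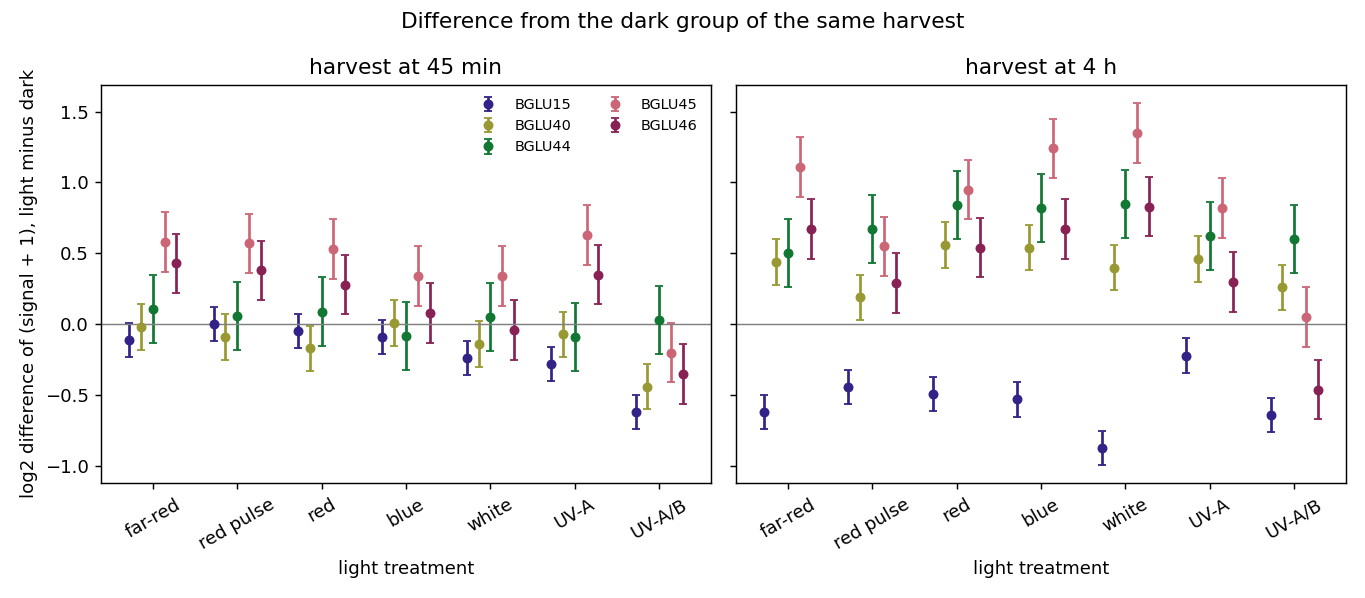
Log2 difference of (signal + 1) between each light treatment and the dark group of its harvest, for the 5 genes. Points are differences of means of 3 arrays and bars are standard errors from the fit over all 48 arrays. At 4 h BGLU15 lies below 0 in every treatment, BGLU40, BGLU44 and BGLU45 lie above it, and BGLU46 lies above it except in UV-A/B (-0.46).

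BGLU44, the mannoside-preferring member, lay near its dark level at 45 min and above it at 4 h. At 45 min its 7 log2 differences from darkness were between -0.09 and 0.11, each with an SE of 0.24. In darkness at 4 h it read 97.5, 107.5 and 99.2, a mean of 101 ± 5.35 (SD, n = 3). In white light it read 192.6, 169.0 and 190.5, a mean of 184 ± 13.1. Every white array lay above every dark array, and the same held in far-red, red pulse, red and blue light.

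The log2 difference of BGLU44 at 4 h was 0.85 ± 0.24 in white light (1.81-fold), 0.84 ± 0.24 in red and 0.82 ± 0.24 in blue. In the red pulse (145.3, 171.1 and 169.2) the difference was 0.67 ± 0.24 and in far-red (147.0, 170.4 and 117.9) it was 0.50 ± 0.24. After the 1 min pulse the levels at 4 h overlapped those of continuous red light (186.4, 207.1 and 157.9). The difference between continuous red and the pulse was 0.18 ± 0.24, with an adjusted p of 0.879.

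The UV groups of BGLU44 at 4 h were the most scattered of its 16, with SDs of 70.2 for UV-A and 65.2 for UV-A/B. UV-A at 4 h gave 168.2, 236.5 and 96.1, and UV-A/B gave 154.7, 231.7 and 102.0. In both groups replicate 2 was the highest and replicate 3 the lowest, and replicate 3 lay within the range of the dark arrays after UV-A/B and just below it after UV-A. The difference from darkness was 0.62 ± 0.24 for UV-A and 0.60 ± 0.24 for UV-A/B. Without UV-A replicate 3 the former was 0.97, and without UV-A/B replicate 3 the latter was 0.90. Between the UV pulses the difference was -0.02 ± 0.24 (adjusted p = 0.978).

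In the order of its group means all 7 light groups at 4 h lay above the 9 other groups, from 184 in white light to 145 in far-red, and the next group, darkness at 4 h, did not overlap with far-red. The other 14 pairs of neighbours overlapped. No change of the BGLU44 effect between harvests was called. The largest was 0.89 ± 0.34 in blue light (adjusted p = 0.0845). Fitted on its own groups alone it was called (adjusted p = 0.0162). In white light the change was 0.80 ± 0.34 (adjusted p = 0.158), and without white 45 min replicate 2 it was 1.05 and called (adjusted p = 0.048). For mannan, the polymer whose breakdown yields mannosides, only CSLA03, a glucomannan synthase gene, of 13 listed genes was measured, and limma called it in 0 of the 14 comparisons with darkness (3 with an unadjusted p under 0.05), with log2 differences between -0.44 and 0.51.

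BGLU40 had the narrowest range of the 5 genes, with its 16 group means between 100 and 160, a ratio of 1.59. All 15 pairs of neighbours in their order overlapped. At 4 h it read 90.0, 109.8 and 121.7 in darkness, a mean of 107 ± 16 (SD, n = 3). In red light it read 177.3, 174.6 and 126.8, a mean of 160 ± 28.4. In blue light it read 165.6, 175.1 and 127.4, and in far-red 162.9, 138.0 and 135.2. In these 3 treatments every light array lay above every dark array, and the differences were 0.56 ± 0.16 in red, 0.54 ± 0.16 in blue and 0.44 ± 0.16 in far-red.

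The lowest of the dark signals is that of replicate 1, the array with green germination light in its label. Without the 2 arrays with conflicting labels the differences were 0.45 in red, 0.42 in blue and 0.32 in far-red. White light, with 150.9, 141.7 and 129.0, differed from darkness by 0.40 ± 0.16, and UV-A, with 143.9, 174.8 and 125.6, by 0.46 ± 0.16.

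At 45 min BGLU40 had its lowest group mean after UV-A/B, with 97.9, 123.0 and 79.6 against 138.5, 127.5 and 138.0 in darkness. These groups did not overlap, and the difference was -0.44 ± 0.16. It was -0.60 without the 2 arrays with conflicting labels, of which UV-A/B replicate 2 has the highest signal of its group.

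The light effect on BGLU40 was called as different between harvests in 2 of 7 treatments. In UV-A/B it went from -0.44 ± 0.16 at 45 min to 0.26 ± 0.16 at 4 h, a change of 0.71 ± 0.22 (adjusted p = 0.0312). In red light it went from -0.17 ± 0.16 to 0.56 ± 0.16, a change of 0.73 ± 0.22 (adjusted p = 0.0344). Both changes subtract the difference of BGLU40 between the dark groups, which was -0.34 ± 0.16 and not called (adjusted p = 0.519). The UV-A/B call was lost without any 1 of 7 arrays (dark 45 min replicates 1 and 3, UV-A/B 45 min replicates 1 and 3, dark 4 h replicate 1, UV-A/B 4 h replicates 1 and 2), with adjusted p up to 0.125. The red call was also lost without any 1 of 7 (dark 45 min replicates 1 and 3, red 45 min replicates 2 and 3, dark 4 h replicate 1, red 4 h replicates 1 and 2), with adjusted p up to 0.119, and without the 2 arrays with conflicting labels (adjusted p = 0.0986).

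BGLU45 and BGLU46, the monolignol glucosidase genes, are direct neighbours on chromosome 1 in the RefSeq gene table (TAIR10.1), with 0 protein-coding genes between them. BGLU45 had its highest mean in white light at 4 h. Its signals there were 40.6, 30.9 and 40.5, a mean of 37.3 ± 5.57 (SD, n = 3). Darkness at 4 h gave signals from 11.8 to 17.6, a mean of 14.1 ± 3.06. The log2 difference was 1.35 ± 0.21, on a scale where the added 1 understates the change of low signals. None of the 3 dark arrays lay above the 40th percentile, so no fold is given.

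The other continuous lights followed in the order of their means. Blue light gave 39.8, 26.4 and 37.9 (1.24 ± 0.21), far-red 31.3 ± 2.8 in the mean (1.11 ± 0.21) and red 36.1, 23.4 and 25.6 (0.95 ± 0.21). All 12 arrays of continuous light lay above the highest dark array, as did those of UV-A, with signals from 22.3 to 29.3 and a difference of 0.82 ± 0.21. Without the 2 arrays with conflicting labels the UV-A difference was 0.71. The red pulse, with 23.8, 19.7 and 19.3, also lay above all dark arrays, with a difference of 0.55 ± 0.21.

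At 45 min BGLU45 was low everywhere, with 8.9 to 25.3 over the 21 light arrays and 12.9, 17.8 and 10.1 in darkness. Of the light arrays 11 lay above every dark array and 1 below every one. The largest difference was 0.63 ± 0.21 in UV-A. The effect of white light changed by 1.01 ± 0.30 between harvests (from 0.34 to 1.35, adjusted p = 0.0274) and that of blue light by 0.90 ± 0.30 (from 0.34 to 1.24, adjusted p = 0.0469). The white call was lost without any 1 of 6 arrays (dark 45 min replicate 2, white 45 min replicate 3, dark 4 h replicates 1 and 2, white 4 h replicates 1 and 3), with adjusted p up to 0.115. The blue call was lost without any 1 of 8 (dark 45 min replicates 1 and 2, blue 45 min replicates 2 and 3, dark 4 h replicates 1 and 2, blue 4 h replicates 1 and 3), with adjusted p up to 0.17. Without the 2 arrays with conflicting labels the adjusted p was 0.0893 for white and 0.13 for blue light. Of the 8 other settings, this one included, 4 kept the white call and 3 the blue call. Both were lost after quantile normalization (adjusted p of 0.0659 for white and 0.0806 for blue) and median scaling (0.0507 and 0.0691). Fits on their own groups lost both too (0.125 and 0.177). Without the filter the blue call was lost (0.0665). Both changes contain the difference from darkness at 4 h, and BGLU45 passed the filter only through light arrays of that harvest. Their adjusted p-values are therefore a description and not a test.

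BGLU46 showed a like order at 4 h, on its own scale. It read 222.1, 252.2 and 207.8 in darkness, a mean of 227 ± 22.7 (SD, n = 3). In white light it read 487.5, 328.1 and 415.0, a mean of 410 ± 79.8. Blue light gave 333.5, 323.6 and 436.0 and far-red 409.5, 327.6 and 352.5. All of these arrays lay above the highest dark array. The differences were 0.83 ± 0.21 in white (1.80-fold), and 0.67 ± 0.21 in both blue and far-red.

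Red light, with 361.0, 303.8 and 325.8, lay above all dark arrays too, with a difference of 0.54 ± 0.21. The red pulse gave 329.0, 251.6 and 258.9 and UV-A 336.6, 248.8 and 262.3, both overlapping with darkness. At 45 min the 7 differences of BGLU46 from darkness lay between -0.35 and 0.43. In the order of the 16 group means BGLU45 ran from 37.3 in white light at 4 h to 11.7 after UV-A/B at 45 min, and BGLU46 from 410 to 127 in the same groups (3.22-fold), and all 15 pairs of neighbours overlapped for each gene. No change of effect between harvests was called for BGLU46. In white light it was 0.87 ± 0.29 with an adjusted p of 0.0561. A pseudocount of 16 gave it a call (adjusted p = 0.0463). It was also called without dark 45 min replicate 3 (adjusted p = 0.0164), white 45 min replicate 2 (0.034) or white 4 h replicate 2 (0.0321).

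Over all 5 genes, 6 of the 35 changes of effect between harvests were called, beside 18 with an unadjusted p under 0.05. By treatment these were 1 of 5 in far-red (15.0% of all probe sets), 0 of 5 in the red pulse (1.72%), 1 in red (6.80%), 1 in blue (11.4%), 2 in white (8.73%), 0 in UV-A (4.17%) and 1 in UV-A/B (10.0%). For the red pulse 1 of 5 and for UV-A 2 of 5 had an unadjusted p under 0.05. Of the 6 calls, 1 held without every single array, that of BGLU15 in white light.

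The pulses with and without UV-B were compared directly at both harvests. At 4 h, 3 of 5 genes fell with UV-A/B against UV-A, beside 8.74% of all tested probe sets. At 45 min 1 of 5 did, beside 2.16% of all. Both counts include BGLU45, which passed the filter only through light arrays at 4 h, so its calls are a description.

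BGLU45 was lower after UV-A/B at both harvests. At 4 h it read 13.1, 13.6 and 16.9 against 22.3 to 29.3 after UV-A, a log2 difference of -0.77 ± 0.21 with an adjusted p of 0.0154. At 45 min it read 8.9, 10.6 and 15.6 against 20.5, 17.9 and 25.3, a difference of -0.83 ± 0.21 with an adjusted p of 0.0252. At each harvest all 3 UV-A/B arrays lay below all 18 arrays of the other 6 light treatments, and they overlapped with the dark arrays. At 4 h 1 of 3 UV-A arrays and 0 of 3 UV-A/B arrays lay above the array's 40th percentile. BGLU45 passed the filter only through light arrays at 4 h, so its p-values here are a description. The 45 min signals all lie under the array's 40th percentile. With a pseudocount of 16 their difference was -0.43 and not called (adjusted p = 0.0542). After scaling to array medians it was not called either (adjusted p = 0.056). At 45 min the call was also lost without any 1 of 4 arrays (UV-A replicates 1 and 3, UV-A/B replicates 1 and 2), with adjusted p between 0.0695 and 0.181. Without both arrays with conflicting labels it was lost too (adjusted p = 0.114). At 4 h it was lost without UV-A replicate 1 (0.09), UV-A/B replicate 1 (0.0728) or UV-A/B replicate 2 (0.0629), in adjusted p.

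BGLU46 was likewise lower after UV-A/B. At 4 h it read 203.7, 119.3 and 183.3 against 336.6, 248.8 and 262.3, a difference of -0.76 ± 0.21 with an adjusted p of 0.0129. All 3 arrays lay below all 18 arrays of the other light treatments (248.8 to 487.5) and also below all 3 dark arrays. The call was lost without UV-A replicate 1 (adjusted p = 0.0985) or UV-A/B replicate 2 (0.166). At 45 min the arrays read 126.7, 131.8 and 123.6 against 231.2, 160.2 and 236.9, again without overlap. That difference was -0.69 ± 0.21 with an adjusted p of 0.0736. The replicate numbers pair these arrays, and with the number as a block the adjusted p was 0.0132.

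**Figure D3:**
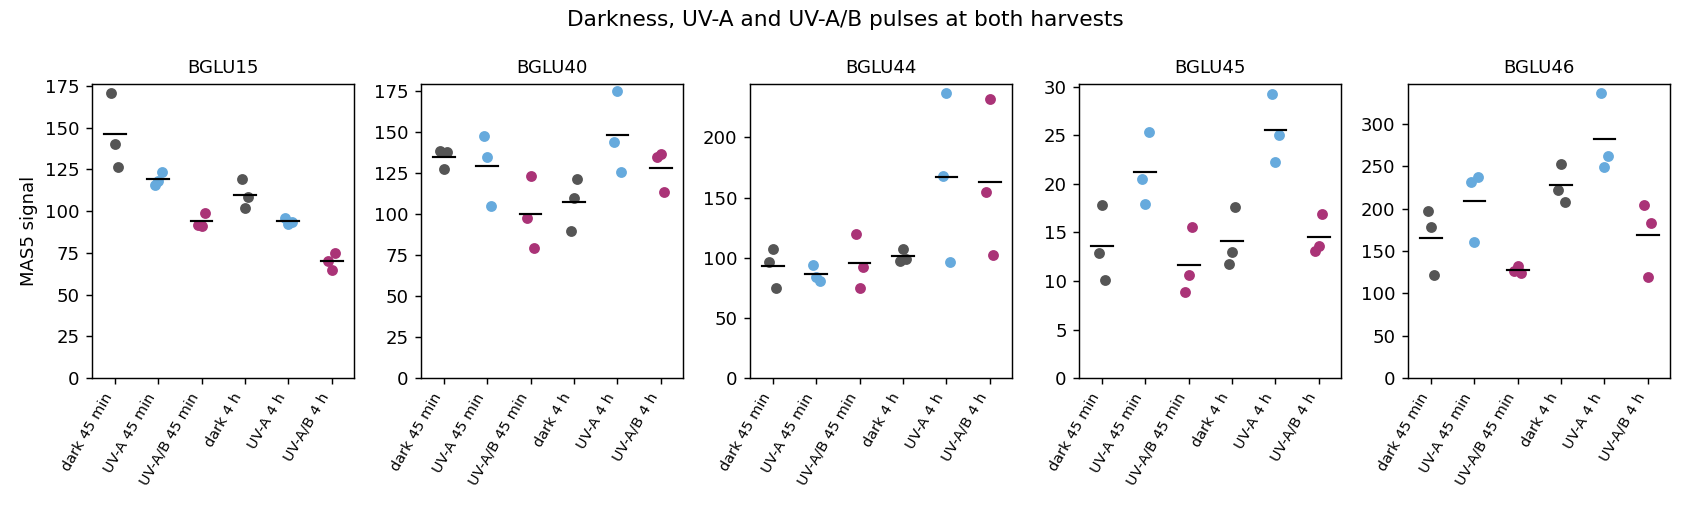
MAS5 signal (linear, each axis from 0) of the 5 genes in darkness (grey), after the UV-A pulse (light blue) and after the UV-A/B pulse (purple) at both harvests. Points are arrays and lines are means of 3. UV-A/B arrays of BGLU15, BGLU45 and BGLU46 lie below all UV-A arrays at each harvest, and those of BGLU40 and BGLU44 overlap with them.

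BGLU15 also fell with UV-A/B against UV-A at 4 h, from 95.9, 92.6 and 93.7 to 70.2, 64.5 and 75.0. The difference was -0.43 ± 0.12 with an adjusted p of 0.0133, lost without UV-A/B replicate 2 (0.0838). At 45 min the signals were 115.7, 118.2 and 123.6 against 91.6, 91.0 and 99.1, a difference of -0.34 ± 0.12 (adjusted p = 0.147). The groups did not overlap at either harvest. For BGLU40 the difference was -0.20 ± 0.16 at 4 h (adjusted p = 0.553) and -0.37 ± 0.16 at 45 min (adjusted p = 0.307), with overlapping arrays. Fitted on the UV groups alone, none of the 4 calls remained, with adjusted p of 0.112 to 0.159 at 4 h and 0.58 at 45 min. The sizes of the differences were the same in that fit.

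Between the other light treatments 0 of the 5 genes was called in any of 6 comparisons. The share of all probe sets called was 4.09% for red against the red pulse, 7.33% for red against far-red, 4.15% for blue against red, 0.228% for blue against far-red and 0.456% for white against blue at 4 h, and 0.513% for blue against red at 45 min. An unadjusted p under 0.05 was found for BGLU40 in red against the red pulse (0.37 ± 0.16, adjusted p = 0.243) and for BGLU15 in white against blue (-0.34 ± 0.12, adjusted p = 0.324). In the latter every white array of BGLU15 lay below every blue array. BGLU44 in blue lay above all far-red arrays, with a difference of 0.32 ± 0.24 (adjusted p = 0.999). These p-values do not show that the treatments act alike.

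Of the other 43 genes of the family, 17 have a probe set of their own and 6 passed the filter. They are described here beside the 5 genes. Those 5 were picked with results of these arrays in view, so no difference between them and the other genes is read from the counts. The 11 that did not pass had highest group means between 1.33 and 23.5, among them BGLU43, the direct neighbour of BGLU44, and BGLU28, the direct neighbour of BGLU15. Of the 6, the number called against darkness at 4 h was 2 in far-red (29.1% of all probe sets), 0 in the red pulse (2.73%), 0 in red (16.1%), 2 in blue (26.4%), 1 in white (21.3%), 1 in UV-A (4.70%) and 2 in UV-A/B (22.4%). For the red pulse and for red light 1 of 6 had an unadjusted p under 0.05. At 45 min limma called 0 of 42 comparisons, and 0 had an unadjusted p under 0.05. The median log2 difference of the 6 at 4 h was 0.24 in white light and -0.12 in UV-A/B, where the medians of all tested probe sets were -0.01 in each.

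BGLU47, which belongs to the same branch of the family as BGLU45 and BGLU46, rose against darkness in 4 treatments at 4 h. Its signal was 11.1 ± 1.14 (SD, n = 3) in darkness, 33.7 ± 7.74 in blue (1.50 ± 0.27, adjusted p = 2.28e-05), 29.7 ± 3.66 in far-red (1.34 ± 0.27, adjusted p = 0.000107) and 26.9 ± 7.54 in white light (1.17 ± 0.27, adjusted p = 0.00086). Unlike the signals of BGLU45 and BGLU46 after UV-A/B, its signal of 22.8 ± 2.89 there was also called above darkness (0.97 ± 0.27, adjusted p = 0.00584). Whether the genes differ in that response was not tested. Between UV-A/B and UV-A at 4 h its difference was 0.13 ± 0.27. Its signal lay above the 40th percentile on 11 of 48 arrays only. The mean of 11.1 in darkness lay below 24.3, the lowest 40th percentile of any array. Its p-values against darkness are therefore a description. In darkness at 45 min its signal was 19.6 ± 3.7.

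BGLU16 fell in 4 treatments at 4 h. Its signal was 946 ± 50 in darkness and 488 ± 86.3 after UV-A/B, a difference of -0.97 ± 0.11 (adjusted p = 2.82e-09). It was 720 ± 98.4 after UV-A (-0.40 ± 0.11, adjusted p = 0.0166), 763 ± 37 in far-red (-0.31 ± 0.11, adjusted p = 0.0232) and 774 ± 29.9 in blue (-0.29 ± 0.11, adjusted p = 0.0378). Against UV-A the UV-A/B signal fell by 0.57 on the log2 scale (adjusted p = 0.000192). PYK10, the main β-glucosidase of endoplasmic reticulum bodies, BGLU19, BGLU25 and BGLU42 were called in 0 of 14 comparisons with darkness, and none had an unadjusted p under 0.05 there. The group means of PYK10 lay between 2966 and 3721, those of BGLU19 between 55.5 and 94.4, those of BGLU25 between 131 and 199 and those of BGLU42 between 50.9 and 66.3.

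**Figure D4:**
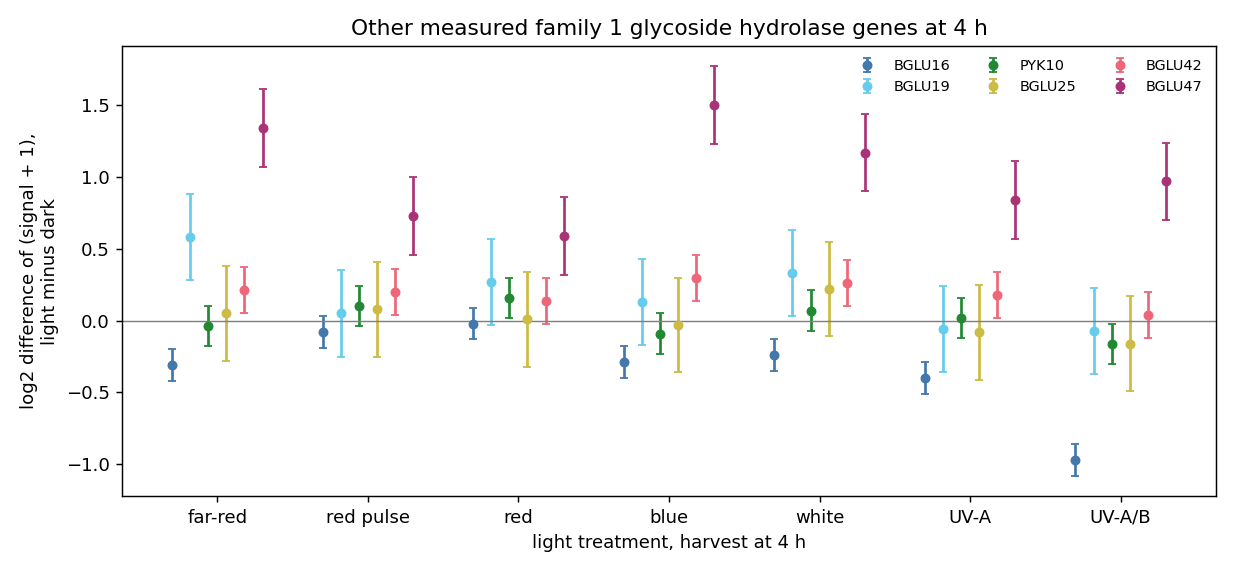
Log2 difference of (signal + 1) from darkness at 4 h for the 6 other family genes that passed the filter. Points are differences of means of 3 arrays and bars are standard errors. BGLU47 lies above 0 in every treatment, with 1.50 in blue light, and BGLU16 reaches -0.97 in UV-A/B.

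Genes of monolignol synthesis and coniferin formation, which supply the substrates of BGLU45 and BGLU46, were sparsely covered. Of 25 listed genes, 6 have a named probe set and 5 passed the filter. Their median log2 difference from darkness at 4 h lay between -0.01 and 0.09 in the 7 treatments, where that of all tested probe sets lay between -0.03 and 0.00. The genes given by value were picked by their calls against darkness, from a list chosen with results of these arrays known. Their p-values are therefore a description. CCR2, a cinnamoyl-CoA reductase gene, rose in 13 of 14 comparisons. In blue light at 4 h it rose from 7.9 ± 4 in darkness to 41.6 ± 2.4 (2.36 ± 0.40, adjusted p = 1.29e-05). It lay above the 40th percentile on 18 of 48 arrays only, and its mean in darkness lay below 24.3, the lowest of these cut-offs. At 4 h 1 of the 5 rose in every treatment but the red pulse, where none did, and 1 fell in each of the 4 continuous lights, beside the shares of all probe sets given above. UGT72E2, which makes monolignol glucosides, fell at 4 h in white light from 138 ± 8.9 to 68.2 ± 23.6 (-1.06 ± 0.18, adjusted p = 1.32e-05). It also fell in blue (-0.89 ± 0.18), red (-0.81 ± 0.18) and far-red (-0.73 ± 0.18), where BGLU45 lay above darkness. HCT, UGT72E1 and the peroxidase gene AT5G66390 were called in 0 of the 14 comparisons, with an unadjusted p under 0.05 in 3, 3 and 0 of them.

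Of 17 listed genes of flavonoid synthesis and flavonol glycoside formation, the route to the substrates of BGLU15, 6 have a named probe set and 5 passed the filter. In far-red light at 4 h 5 of 5 rose (29.1% of all probe sets were called). In red (16.1%), blue (26.4%), white (21.3%) and UV-A/B (22.4%) 4 of 5 did. At 4 h they had median log2 differences of 3.85 in far-red, 1.81 in red, 3.08 in blue, 2.50 in white and 2.84 in UV-A/B. In the red pulse 2 of 5 (2.73% of all) and in UV-A 0 of 5 (4.70%) rose at 4 h, and in UV-A 4 of 5 had an unadjusted p under 0.05 and the median was 0.39. Here too the genes given by value were picked by their calls, so their p-values are a description. UGT78D2, a flavonoid glucosyltransferase gene, rose in far-red from 30.9 ± 3.46 to 461 ± 66.6 (3.85 ± 0.15, adjusted p = 2.86e-22). AT1G06000, the flavonol rhamnosyltransferase UGT89C1, rose there from 63.3 ± 16.9 to 740 ± 46.6 (3.56 ± 0.15). CHIL, a chalcone isomerase-like gene, had a difference of 5.50 ± 0.44 and UGT78D1, a flavonol rhamnosyltransferase gene, one of 3.88 ± 0.51. CHIL lay above the 40th percentile on 14 of 48 arrays only and UGT78D1 on 13. DFR, the dihydroflavonol reductase gene of the anthocyanin branch, rose in 1 of 14 comparisons, in far-red at 4 h, from 28.3 ± 7.52 to 46.5 ± 3.23 (0.73 ± 0.21, adjusted p = 0.00636). At 45 min 2 of 5 had risen in each of the 7 treatments, UGT78D2 and AT1G06000. By treatment 2.09% to 9.04% of all probe sets were called there. The other genes of the list were not called at 45 min. In far-red, UV-A and UV-A/B 3 of 5 had an unadjusted p under 0.05 at that harvest.

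BGLU45 and BGLU46 had the most similar patterns among the 5 genes. Over the 16 group means their Pearson correlation was 0.927 and the Spearman correlation 0.882. Within the harvests Pearson's r was 0.927 at 45 min and 0.938 at 4 h, over 8 group means each. At 45 min BGLU45 lay above the 40th percentile on 0 of 24 arrays, so that value rests on low signals. BGLU46 ranked 2 among 8698 genes by likeness to BGLU45. These correlations describe group means from the same arrays and carry no test.

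**Figure D5:**
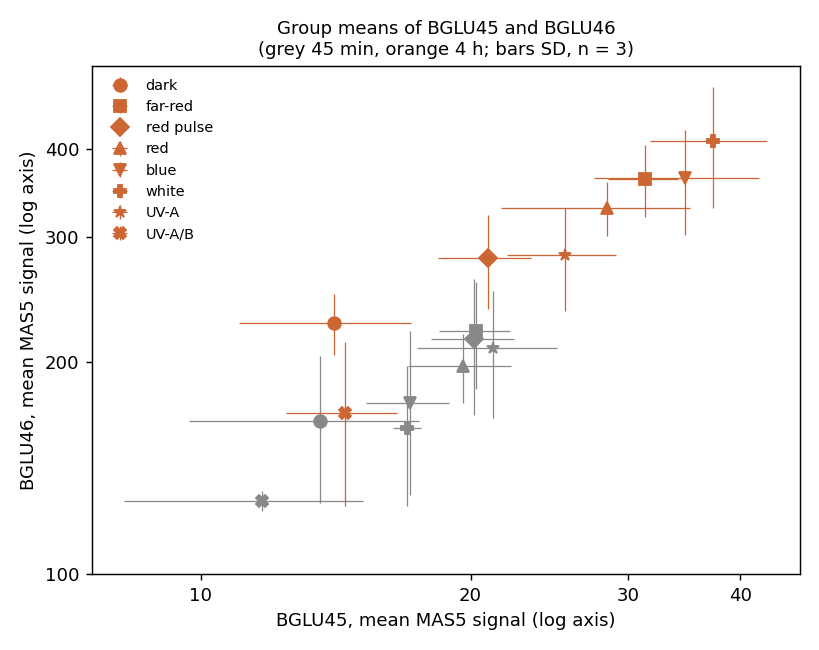
Mean MAS5 signal of BGLU45 against that of BGLU46 in the 16 groups (both axes logarithmic), in grey for 45 min and orange for 4 h, with one symbol per treatment. Bars are SD over 3 arrays. White light at 4 h (37.3 and 410) is at the top right and UV-A/B at 45 min (11.7 and 127) at the bottom left.

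Among the other pairs, BGLU15 and BGLU44 were the most opposed, with r = -0.879 over the 16 means, -0.721 at 4 h and 0.117 at 45 min. BGLU40 correlated with BGLU45 at 0.766 and with BGLU15 at -0.323. The genes closest in pattern to BGLU15 by Pearson's r were AT1G49310 (0.943), AT3G44510 (0.936) and AT2G41620 (0.935), and those closest to BGLU40 were PHYLLO (0.890), AT2G18890 (0.883) and AT3G15940 (0.846). BGLU44 was closest to AT2G43560 (0.986), AT1G51400 (0.981) and AT3G06470 (0.980). BGLU45 was closest to AT3G20015 (0.951), BGLU46 and PMEAMT (0.919), and BGLU46 to AT1G73110 (0.956), AT5G44410 (0.950) and AT1G28400 (0.945). All are correlations over 16 group means.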

How the data were processed

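The deposited values are linear intensity signals, 1 per probe set and array, computed by the authors in MAS5 (source: the submitters' processing notes). The MAS5 version is not given in the sources used here. Their trimmed mean is 100.0 on every array, so only a gene's share of the signal can be compared between arrays. No detection calls were used, and 567 values are 0. The number of arrays limits the precision.

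Signals were log2 transformed after adding 1. Of 22810 probe sets, 64 controls were left out, and 15777 above the 40th percentile of an array on at least 3 arrays were tested. One limma model (limma 3.58.1, R 4.3.3) held a mean for each of 16 groups over all 48 arrays (eBayes with trend, 32 residual degrees of freedom), in 30 contrasts: 14 of light against darkness, 8 between lights, 7 for whether a light effect differed between harvests, and 1 between the dark groups. The Benjamini-Hochberg adjustment was made over all probe sets of a contrast. Other software was version 1.17.8 of data.table, pandas 2.3.3 and numpy 2.4.6 and matplotlib 3.10.9 in Python 3.11.15.

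The members and lists were chosen with earlier results of these data known. Named were the 5 genes, every other measured family gene, listed genes called against darkness (at most 4 per list, largest difference first), and for each of the 5 the 3 genes with the highest Pearson correlation over the group means. Symbols came from the platform's gene table and RefSeq (TAIR10.1), and probe sets of several genes were not named. Alternatives were a pseudocount of 16, no filter, quantile or median scaling, a fit on the groups of the contrast alone, eBayes without trend, each array left out, both arrays with conflicting labels left out, the replicate number as a block, and Spearman correlation. In 11 of 23 pairs of groups every pair of same-numbered arrays had correlated deviations over 0.1. There the numbers were taken to pair the arrays. The main model and its p-values did not use this pairing, which entered only as the block in an alternative fit. No genome sequence was used.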

Additional observations from a re-analysis of the deposited data

Results flagged for a closer look

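The effect of a light treatment against darkness was called as different between 45 min and 4 h in 6 of 35 comparisons. By treatment 1.72% to 15.0% of all probe sets were called. Each value is a log2 difference at 4 h minus that at 45 min. It is built from the differences from darkness, so it is a description. BGLU15 had -0.51 in far-red and -0.63 in white light, BGLU40 had 0.73 in red light and 0.71 after UV-A/B, and BGLU45 had 0.90 in blue and 1.01 in white light. BGLU15 in white light kept its call in all 12 fits that left out 1 array, and the others kept theirs in 4 to 7 of 12.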

How the results depend on the processing

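Of 2245 recomputed member differences none reversed a called direction, 2040 stayed on their side of the threshold, 90 lost a call, 34 gained one and 81 uncalled differences changed sign. Light against darkness gave 21 member calls, between 17 and 27 under the other settings (27 with the replicate block) and 16 to 24 with 1 array left out, and nothing is read from these counts. Between light treatments 4 calls became 0 in fits on the groups of the contrast alone, 5 with the replicate block, and 2 to 5 with 1 array left out. The 6 changes of effect between harvests became 10 with the replicate block, 2 in fits on the contrast's groups alone, 2 without the 2 arrays whose labels conflict, and 1 to 8 with 1 array left out. The groups alone leave fewer residual degrees of freedom. The dark comparison stayed at 0 calls throughout. Pairing was checked between pairs of groups only, not for the changes of effect. Among those changes the block also called 4. The adjusted p was 0.0301 for BGLU44 and 0.0379 for BGLU40 in blue light, and 0.0122 for BGLU46 and 0.0412 for BGLU40 in white light. By Spearman correlation none of the 3 genes named for BGLU15 (ranks 17, 10 and 11) or BGLU40 (ranks 11, 37 and 39) stayed among the closest 3. Those of BGLU44 and BGLU45 stayed in part, and all 3 of BGLU46 did. BGLU45, BGLU47, CCR2, CHIL and UGT78D1 lie under the 40th percentile on most arrays, and their changes are the least certain.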
